A study of Mus musculus with 4 samples.

Results

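Single-nucleus chromatin accessibility profiles of mouse hepatocyte preparations held a small population of nuclei with open chromatin at genes of hepatic stellate and other mesenchymal cells, 109 of 15349 nuclei (0.710%). A nucleus was counted as one of these marker-selected nuclei when it had at least 1000 counts in peaks, when 10 hepatocyte genes (Alb, Apoa1, Apob, Ttr, Hnf4a, Tat, Cps1, Cyp2e1, Serpina1a and Fgb) held under 0.2% of those counts, and when 12 stellate and mesenchymal genes together held at least 4 counts. The 12 genes were Pdgfrb, Lrat, Reln, Des, Col1a1, Col1a2, Col3a1, Hand2, Heyl, Foxf1, Gucy1a2 and Pcdh7. Their sum had to exceed both the sum over 5 endothelial genes (Kdr, Pecam1, Stab2, Egfl7 and Ehd3) and that over 5 immune genes (Csf1r, Ptprc, Spi1, Cd5l and Laptm5). A gene's counts were those of every peak over its body or the 2000 bp upstream, on mm10. The choice rests on measured values, so levels of these 32 genes in the chosen nuclei are a description and carry no test. By genes outside the rule the label held in the undamaged liver and in part at 48 hours. At 72 hours the stellate cell genes outside the rule, summed over the chosen nuclei, were near their hepatocyte level, against the label. At 96 hours the 9 nuclei gave mixed values that do not settle it. The nuclei are therefore named here by how they were chosen.

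Single-nucleus ATAC-Seq (scATAC-Seq) records where the Tn5 transposase can cut DNA, and each count is a cut site assigned to a nucleus by its droplet barcode. The 4 libraries came from livers of male C57BL/6J mice, aged 10 to 12 weeks by the labels (the study's methods give a lower age at surgery), on a normal diet, with no genetic change, either undamaged (0 hours) or 48, 72 and 96 hours after partial hepatectomy (PHx), an operation that takes away a large share of the liver and sets off regrowth. Hepatocytes were isolated by two-step collagenase perfusion, which enriches for hepatocytes, so other cells are those that the preparation still held. By the study's methods the 48 hour library came from a single mouse. There was 1 library per time point, so time and library cannot be told apart and no p-value was computed between time points.

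Hepatic stellate cells lie between hepatocytes and the sinusoidal endothelium, store vitamin A as retinyl esters and wrap the sinusoid as pericytes do. After injury they can become contractile myofibroblasts that lay down collagen, and they supply hepatocytes and endothelium with growth factors. In liver they are marked by mesenchymal transcription factors, among them Lhx2, Foxf1 and Hand2, and by Pdgfrb, the receptor for platelet-derived growth factor.

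Sequences from within counted peaks are shown first. Counts are known per whole peak, so where in a peak they lay is not known. Each is up to 300 bases of open chromatin from a peak of the undamaged library, free of annotated exons, read from the + strand of NCBI's GRCm38 assembly (mm10). Heyl and Lrat are genes of the rule, Lhx2 and Tagln belong to lists outside it, and Adra2b and Daam1 led among genes and peaks outside it by values at 0 hours. Capitals mark matches on either strand to any of 10 short motifs, namely GGAATG for TEAD factors, TGANTCA for AP-1, AGATAA for GATA factors, CAGCTG for the E-box, CAAAGT for HNF4, GTAAACA for FOX factors, TAATTA for LHX homeobox factors, TTGGCA for NFI, TGTGGTT for RUNX and the CArG box of SRF, which is searched by its name. Motifs were searched one by one, so overlapping matches to different motifs would all count.
Heyl promoter, chr4:123233060-123233359: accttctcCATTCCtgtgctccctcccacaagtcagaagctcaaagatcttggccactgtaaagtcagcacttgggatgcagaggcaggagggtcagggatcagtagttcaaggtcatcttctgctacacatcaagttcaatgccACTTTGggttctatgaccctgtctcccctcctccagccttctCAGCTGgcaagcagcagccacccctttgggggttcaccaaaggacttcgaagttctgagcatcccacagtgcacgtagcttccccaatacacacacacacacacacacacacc
Lrat promoter, chr3:82903974-82904273: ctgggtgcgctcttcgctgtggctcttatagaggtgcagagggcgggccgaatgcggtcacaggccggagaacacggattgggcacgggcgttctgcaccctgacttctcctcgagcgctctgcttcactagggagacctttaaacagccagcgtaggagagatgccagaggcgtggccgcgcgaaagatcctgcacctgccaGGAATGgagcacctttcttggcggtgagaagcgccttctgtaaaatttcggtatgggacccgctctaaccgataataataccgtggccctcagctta
Lhx2 within the gene, chr2:38351974-38352273: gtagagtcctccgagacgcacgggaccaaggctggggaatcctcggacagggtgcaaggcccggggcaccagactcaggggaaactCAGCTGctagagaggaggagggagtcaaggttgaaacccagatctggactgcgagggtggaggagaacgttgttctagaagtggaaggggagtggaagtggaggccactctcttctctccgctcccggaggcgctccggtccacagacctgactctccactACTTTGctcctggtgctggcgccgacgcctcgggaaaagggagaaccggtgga
Adra2b promoter, chr2:127362908-127363207: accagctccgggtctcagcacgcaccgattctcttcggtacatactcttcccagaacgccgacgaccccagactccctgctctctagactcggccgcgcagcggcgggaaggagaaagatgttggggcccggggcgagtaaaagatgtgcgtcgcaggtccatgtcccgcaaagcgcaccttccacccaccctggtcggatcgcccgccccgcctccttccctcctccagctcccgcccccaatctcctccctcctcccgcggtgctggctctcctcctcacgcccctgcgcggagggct
Daam1 intron, chr12:71972520-71972819: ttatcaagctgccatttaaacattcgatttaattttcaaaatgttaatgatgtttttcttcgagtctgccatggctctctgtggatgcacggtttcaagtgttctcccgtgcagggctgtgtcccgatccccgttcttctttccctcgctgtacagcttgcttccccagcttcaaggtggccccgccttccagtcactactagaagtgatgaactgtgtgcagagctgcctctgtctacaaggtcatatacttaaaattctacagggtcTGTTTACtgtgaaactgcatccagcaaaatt
Tagln promoter, chr9:45936059-45936358: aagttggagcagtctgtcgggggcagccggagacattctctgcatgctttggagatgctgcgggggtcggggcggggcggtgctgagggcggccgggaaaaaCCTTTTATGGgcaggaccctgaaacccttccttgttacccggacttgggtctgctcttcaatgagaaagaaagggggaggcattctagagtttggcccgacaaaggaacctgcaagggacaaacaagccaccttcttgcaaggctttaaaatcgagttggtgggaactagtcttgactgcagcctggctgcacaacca

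The Heyl stretch was centred 346 bp before the gene's start and held a TEAD, an E-box and an HNF4 motif match. The Lrat stretch, just upstream of the gene that encodes the enzyme esterifying retinol for storage, held a TEAD match. Its peak also lay in the window of Rbm46os, so counts there cannot be given to Lrat alone. The Lhx2 stretch lay between exons of Lhx2, centred 12843 bp after its start, and held an E-box and an HNF4 motif match. The Daam1 intron held a FOX match, and the Adra2b promoter held none of the 10 motifs. The Tagln stretch, the 300 bases before the start of a smooth muscle actin-binding protein gene, held the CArG box. Its peak was broad and also lay over Sidt2 and Gm48529, so counts there cannot be given to Tagln alone. Among the 6550 peaks of the undamaged library with at least 10 counts in the marker-selected nuclei, 13.3% held the TEAD letters in their central 300 bases, 16.0% the E-box, 12.8% the HNF4 motif, 3.51% the FOX letters and 1.16% the CArG box. A match describes letters and is not evidence of binding.

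Marker-selected nuclei made up 25 of 3977 nuclei at 0 hours (0.629%, 95% interval 0.407 to 0.927%), 13 of 3892 at 48 hours (0.334%, 0.178 to 0.571%), 62 of 4256 at 72 hours (1.46%, 1.12 to 1.86%) and 9 of 3224 at 96 hours (0.279%, 0.128 to 0.529%). The intervals are exact Clopper-Pearson intervals and cover counting error only. The share was highest at 72 hours under this rule, but with the hepatocyte limit at 0.1% in place of 0.2% it was 0.603% at 0 hours and 0.423% at 72 hours. Of the low-hepatocyte nuclei alone, the chosen ones were 7.40, 4.41, 7.30 and 2.61% in order of time. The 72 hour share came from a library whose nuclei had a median of 4841 counts, against 26005, 11629 and 3681.5 counts at 0, 48 and 96 hours. The chosen nuclei had medians of 7680, 2561, 4943 and 2613 counts, and together 208478, 50753, 375075 and 28947. The low-hepatocyte nuclei also held 105, 65, 143 and 5 endothelial nuclei and 14, 33, 29 and 1 immune nuclei, chosen by the same rule with the sums exchanged, and 1323 nuclei in no class. Hepatocyte nuclei, with the 10 hepatocyte genes at or above 0.2%, numbered 3639, 3597, 3407 and 2879. Between 681 and 882 barcodes were shared by each pair of libraries, and 3 marker-selected nuclei carried a barcode also present in another library, 1 at 48 hours and 2 at 72 hours.

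The marker-selected nuclei of the 4 libraries differed in what the rule itself measured. The median share of counts at the 10 hepatocyte genes was 0.0308% at 0 hours, 0% at 48 hours, 0.144% at 72 hours and 0.131% at 96 hours. At 0 hours 18 of 25 nuclei lay under 0.05% and 1 lay between 0.1 and 0.2%. At 48 hours 9 of 13 lay under 0.05%. At 72 hours 7 of 62 lay under 0.05% and 44 lay between 0.1 and 0.2%, and at 96 hours the numbers were 3 and 5 of 9. The plot of hepatocyte share per nucleus shows the 72 hour nuclei crowded below the limit. At that limit the highest nucleus inside had 0.121, 0.154, 0.1998 and 0.197% in order of time, and the lowest outside that met the marker part of the rule had 0.221, 0.232, 0.2002 and 0.2001%. In the band from 0.2 to 0.3% there were 10, 24, 85 and 10 further nuclei that met the marker part.

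**Figure D1:**
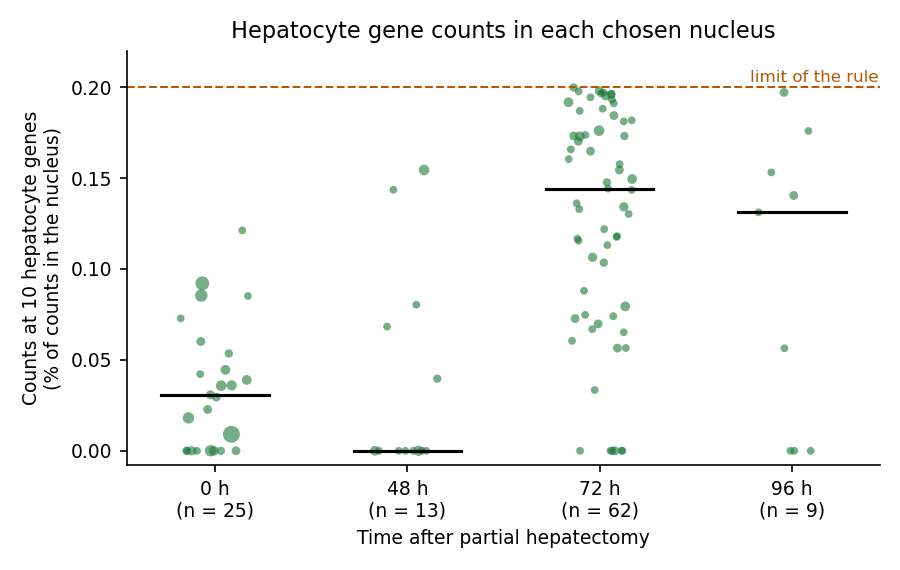
Share of counts at the 10 hepatocyte genes (%, y axis) in each marker-selected nucleus, by time after PHx (x axis). Each point is a nucleus, its size grows with its marker counts, bars are medians and the dashed line is the 0.2% limit. The median was 0.0308% at 0 hours and 0.144% at 72 hours, where 44 of 62 nuclei lay above 0.1%.

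The marker counts were few. At 0 hours a chosen nucleus had a median of 6 marker counts and at most 30, and 15 of 25 nuclei (60.0%) had counts at 3 or more of the 12 genes. At 48, 72 and 96 hours the median was 4 counts, the minimum of the rule, and 3 of 13 (23.1%), 16 of 62 (25.8%) and 0 of 9 nuclei had counts at 3 or more genes. Exactly 4 counts were present in 6, 9, 38 and 7 nuclei. Since most fragments give 2 cut sites, 4 counts are about a pair of fragments. Just outside, 13, 26, 92 and 36 low-hepatocyte nuclei had 2 or 3 marker counts.

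Of the 12 rule genes, 10 had a count in the chosen nuclei, 621 counts in all. Levels are given as CPM, the counts at a gene scaled to the summed counts of its class and library, and genes were compared only with themselves across classes and libraries. Reln, a secreted matrix glycoprotein of quiescent stellate cells, had 168 CPM at 0 hours, 78.8 at 48 hours, 216 at 72 hours and 622 at 96 hours, from 35, 4, 81 and 18 counts. Pcdh7, a protocadherin, had 211, 197, 144 and 276 CPM from 44, 10, 54 and 8 counts. These long genes and Gucy1a2, a subunit of the nitric oxide receptor guanylate cyclase, gave 46.4, 23.5, 47.4 and 85.0% of all marker counts in order of time. At 96 hours they therefore made up most of the choice.

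Heyl, a Notch target of vascular mural cells, had 235 CPM at 0 hours, 256 at 48 hours, 80.0 at 72 hours and 69.1 at 96 hours. Foxf1, a mesenchymal forkhead factor, had 139, 78.8, 69.3 and 69.1 CPM. Lrat had 57.6, 78.8, 58.7 and 0 CPM, and Pdgfrb had 62.4, 394, 125 and 69.1 CPM. Each library has its own peaks, with 5, 9, 16 and 3 at Pdgfrb, 9, 10, 13 and 6 at Reln, 3, 6, 5 and 3 at Heyl and 1 in each library at Lrat, so the regions in which a gene could be counted differed between libraries. Heyl and Foxf1 had their upper values in the libraries of 0 and 48 hours, and each rested on 2 counts at 96 hours. The collagen genes were thin, with 6, 6, 24 and 0 counts at Col1a1, 2, 4, 4 and 0 at Col3a1 and none at Col1a2. Des, the intermediate filament gene of stellate cells, had no count in any chosen nucleus and a peak only in the 48 hour library. Hand2 had 0, 1, 8 and 0 counts.

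**Figure D2:**
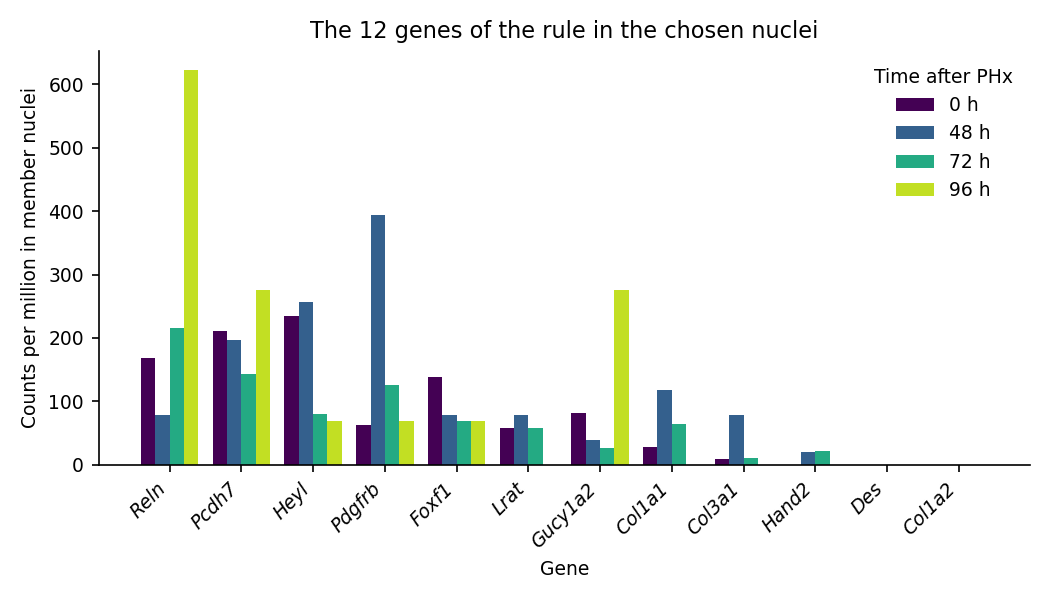
CPM in the marker-selected nuclei (y axis) for the genes of the rule (x axis), with bars coloured by time after PHx. Heyl had 235 and 256 CPM at 0 and 48 hours and 80.0 and 69.1 CPM at 72 and 96 hours, while Reln reached 622 CPM at 96 hours from 18 counts. These genes chose the nuclei, so the bars carry no test.

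To see whether the markers occurred together beyond the choice, each of the 12 genes was left out in turn, nuclei were chosen with the other 11, and the left-out gene was measured in them. At 0 hours 9 of 12 left-out genes were above their level in both endothelial and hepatocyte nuclei and the other 3 (Des, Col1a2 and Hand2) had no count. At 48 hours 7 of 12 were above both, at 72 hours 4 and at 96 hours 1. Summed over the 12 genes, the left-out level was 7.22 times that of hepatocyte nuclei at 0 hours, 2.65 times at 48 hours, 1.04 times at 72 hours and 0.816 times at 96 hours. Left-out Heyl had 187 CPM in 21 nuclei at 0 hours, against 4.37 in endothelial and 12.9 in hepatocyte nuclei. At 72 hours the same gene had 24.9 CPM, against 18.9 and 30.7. Left-out Foxf1 had 121 CPM at 0 hours against 14.6 and 4.55, and 18.4 CPM at 72 hours against 8.10 and 22.1. Left-out Lrat had 32.6 CPM at 0 hours against 7.29 and 4.68. The endothelial nuclei were themselves chosen to have fewer of these counts, which the hepatocyte nuclei were not. At 72 hours the summed markers were thus near their hepatocyte level once they had not chosen the nuclei.

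The markers were also read from the side of hepatocyte nuclei. The marker part of the rule, applied without the hepatocyte limit, was met by 6.24, 14, 12.6 and 9.17% of hepatocyte nuclei. Those nuclei were deeper, so nuclei within the same range of depth were compared, with medians there of 4307 counts in hepatocyte and 3924 in low-hepatocyte nuclei at 0 hours, and 4518 and 4080 at 72 hours. Among nuclei of 3000 to 6000 counts at 0 hours it was met by 0 of 157 hepatocyte nuclei (interval 0 to 2.32%) and by 5 of 89 low-hepatocyte nuclei (5.62%, 1.85 to 12.6%). At 72 hours it was met by 127 of 1208 hepatocyte nuclei (10.5%, 8.84 to 12.4%) and by 25 of 244 low-hepatocyte nuclei (10.2%, 6.74 to 14.8%). At 48 hours the shares were 5.04 and 3.28%, and at 96 hours 6.85 and 3.28%. After every nucleus was thinned to 1000 counts, 0, 0.0556, 0.264 and 0.0695% of hepatocyte nuclei met it and 0.592, 0.678, 0.353 and 0.290% of low-hepatocyte nuclei. At 3000 to 6000 counts the intervals of both shares overlapped at 0 and at 72 hours, and also at 48 and 96 hours. The shares rest on the rule's own genes and are a description. Low-hepatocyte nuclei classed as endothelial or immune cannot meet the marker part, which lowers the share of that group.

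**Figure D3:**
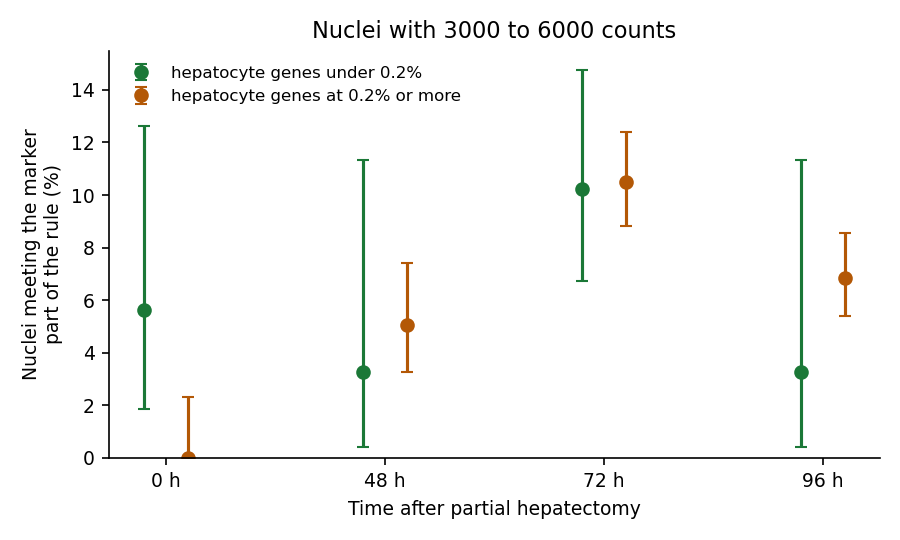
Share of nuclei meeting the marker part of the rule (%, y axis) among nuclei of 3000 to 6000 counts, by time after PHx (x axis), for low-hepatocyte and hepatocyte nuclei, with exact 95% binomial intervals. At 0 hours the shares were 5.62 and 0%, and at 72 hours 10.2 and 10.5%.

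Genes outside the rule, which did not choose the nuclei, were then read in 12 lists. A list of 16 other stellate cell genes summed to 820 CPM at 0 hours (95% Poisson interval 656 to 1014, on counts divided by 2), 729 at 48 hours (436 to 1145), 435 at 72 hours (345 to 540) and 311 at 96 hours (93.3 to 757). This was 4.56, 2.49, 1.20 and 1.32 times the level of hepatocyte nuclei, and 3.09, 2.11, 0.996 and 1.54 times that of endothelial nuclei. The list was above both classes at 0 and 48 hours, and at 72 hours it was near both. At 96 hours its interval was too wide to place it. In nuclei with hepatocyte genes under 0.05%, an alternative added after the values were seen, the list had 638 CPM (221 to 1435) at 72 hours, from 11 counts in 7 nuclei and 1.77 times the level of hepatocyte nuclei, and 943 CPM (114 to 3406) at 96 hours, from 4 counts in 3 nuclei and 4.0 times that level.

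**Figure D4:**
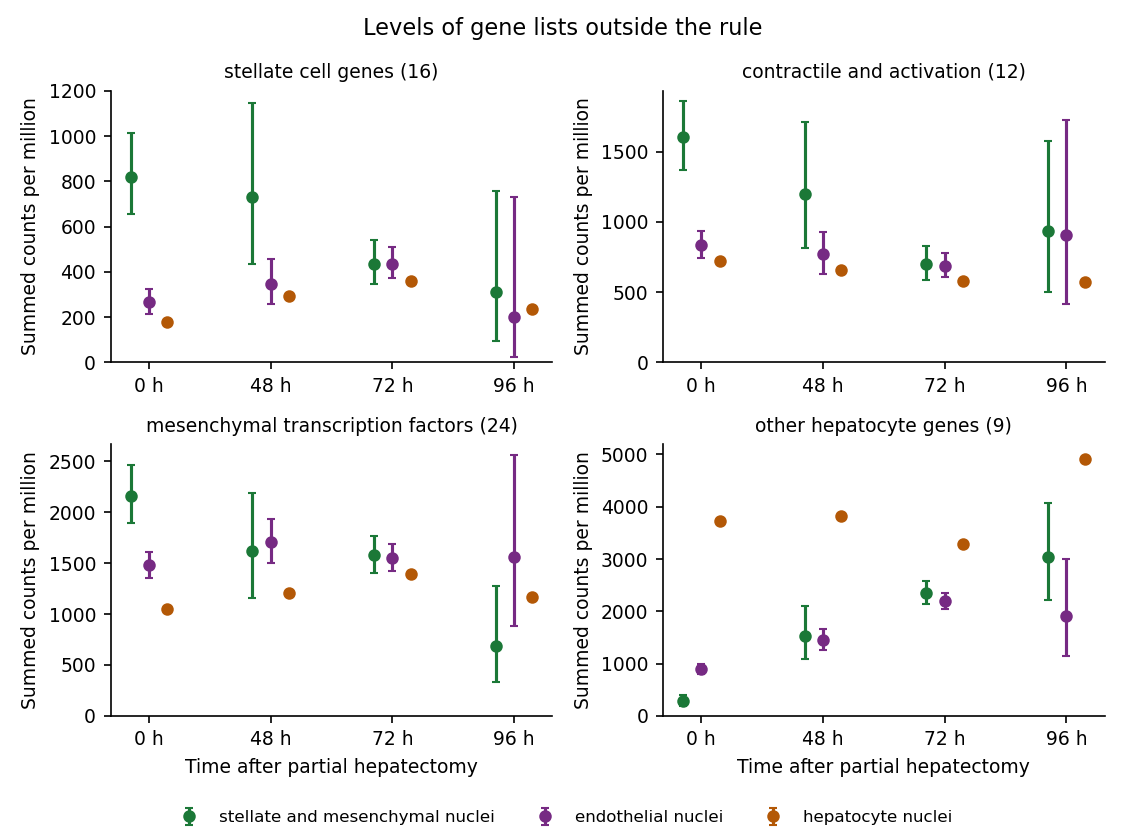
Summed CPM (y axis) of gene lists outside the rule by time after PHx (x axis) in marker-selected, endothelial and hepatocyte nuclei, with exact 95% Poisson intervals on counts divided by 2 and the number of genes in brackets. The stellate cell genes stood at 820 CPM at 0 hours and 435 at 72 hours, and the other hepatocyte genes at 278 and 2346 CPM.

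At 0 hours 7 of the 13 stellate cell genes with a peak were at least 2-fold above both endothelial and hepatocyte nuclei, where 8.48% of all 23535 genes were. Lhx2, a LIM homeobox factor that keeps stellate cells quiescent, had 51 counts in 16 of 25 nuclei, 245 CPM (159 to 360) against 37.9 in endothelial and 34.8 in hepatocyte nuclei. In the later libraries Lhx2 had 158, 82.7 and 34.5 CPM, against 82.0, 95.9 and 52.5 in hepatocyte nuclei. It was above hepatocyte nuclei at 0 and 48 hours and slightly below them at 72 hours, from 51, 8 and 31 counts, and the 1 count at 96 hours gives no direction. Rspo3, an enhancer of Wnt signalling, had 52.8, 39.4, 21.3 and 69.1 CPM, against 4.37 in endothelial and 3.48 in hepatocyte nuclei at 0 hours. Vipr1, a receptor for vasoactive intestinal peptide, had 86.3, 78.8, 82.7 and 173 CPM, against 24.8 and 15.1. Pth1r, the parathyroid hormone receptor, had 120, 118, 34.7 and 0 CPM, against 39.4 and 19.9. Gdf2, the ligand BMP9 that stellate cells supply to the liver endothelium, had 28.8, 39.4, 10.7 and 0 CPM, from 6, 2, 4 and 0 counts. Ngfr, the nerve growth factor receptor, had 24.0, 39.4, 37.3 and 34.5 CPM. Angptl6, an angiopoietin-like protein, had 120, 78.8, 80.0 and 0 CPM against 96.2 and 50.6 at 0 hours.

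Past 2-fold over both classes were 5 of 14 stellate cell genes at 48 hours (11.9% of all genes), 2 of 16 at 72 hours (4.23%), namely Angptl6 and Gdf2, and 3 of 10 at 96 hours (13.8%). The shares of all genes at 48 and 96 hours go with the smallest sums, 50753 and 28947 counts, and the part of depth in them was not tested.

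Among 12 contractile and activation genes the summed level was 1602 CPM at 0 hours, 1202 at 48 hours, 701 at 72 hours and 933 at 96 hours, or 2.23, 1.83, 1.21 and 1.62 times that of hepatocyte nuclei. At 0 hours 5 of 12 (41.7%, against 8.48% of all genes) were past 2-fold over both classes, namely Tagln, Cnn1, Lmod1, Tpm1 and Myl9. Later 4 of 12 were at 48 hours (11.9% of all genes), 1 of 12 at 72 hours (4.23%) and 1 of 10 at 96 hours (13.8%). Tagln had 48 counts in 14 of 25 nuclei, 230 CPM at 0 hours against 36.5 in endothelial and 63.6 in hepatocyte nuclei, and 118, 66.7 and 69.1 CPM later. Tpm1, a tropomyosin, had 197, 118, 77.3 and 415 CPM. Cald1, an actin- and myosin-binding protein, had 345, 335, 243 and 207 CPM, and Actn1, an actin crosslinker, had 317, 315, 139 and 207 CPM. Acta2, smooth muscle actin and the usual sign of an activated stellate cell, had 2, 2, 7 and 0 counts, which is too few to set the time points apart.

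Among 26 matrix and basement membrane genes the sum was 1290, 1911, 1210 and 1624 CPM, 1.97, 1.66, 1.03 and 1.07 times that of endothelial nuclei and 1.03, 1.28, 0.953 and 0.913 times that of hepatocyte nuclei. Of the 20 with a peak at 0 hours 9 (45%, against 8.48% of all genes) were past 2-fold over both classes: Col4a1, Col4a2, Col6a1, Col6a3, Col14a1, Lamb1, Lox, Loxl1 and Loxl2, which encode collagens, a laminin chain and enzymes that crosslink collagen. In the later libraries 6 of 23, 1 of 22 and 4 of 17 were, where 11.9, 4.23 and 13.8% of all genes were. Col4a1, a basement membrane collagen, had 206, 177, 77.3 and 69.1 CPM, against 88.9 in endothelial and 60.1 in hepatocyte nuclei at 0 hours. Col4a2, its partner transcribed from the same promoter region, had 173, 138, 69.3 and 138 CPM, against 78.7 and 50.4, and a peak in that region counts for both genes. Fn1, fibronectin, which hepatocytes also make, had 230, 473, 469 and 829 CPM. Lamc1, another laminin chain, had 125, 78.8, 147 and 138 CPM. Dcn, a proteoglycan of fibroblasts, had no count.

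Among 22 receptors and ligands of stellate signalling 8 of 18 with a peak (44.4%, against 8.48% of all genes) were past 2-fold over both classes at 0 hours, namely Pdgfra, Tgfb2, Tgfb3, Tgfbr3, Jag1, Agtr1a, Cxcl12 and Fgf2. Later 4 of 21, 0 of 22 and 2 of 17 were, where 11.9, 4.23 and 13.8% of all genes were. The list's sum was 2389, 1399, 1608 and 2280 CPM, 1.46, 0.819, 0.968 and 1.36 times that of hepatocyte nuclei. Cxcl12, a chemokine of perivascular stroma, had 94 counts in 18 of 25 nuclei at 0 hours, 451 CPM (331 to 600), and 158, 245 and 415 CPM later. Endothelial nuclei had 99.2, 41.9, 143 and 202 CPM and hepatocyte nuclei 207, 217, 196 and 274. Cxcl12 was above endothelial nuclei in all 4 libraries and above hepatocyte nuclei in 3 of them. Pdgfra, a receptor of the platelet-derived growth factor family, had 173, 197, 82.7 and 69.1 CPM, against 75.8 in endothelial and 36.8 in hepatocyte nuclei at 0 hours. Tgfbr3, a co-receptor for TGF-beta, had 326, 158, 184 and 69.1 CPM, against 111 and 107. Jag1, a Notch ligand, had 230, 39.4, 125 and 276 CPM, and Vegfa, a ligand for endothelial receptors, had 67.2, 158, 165 and 484 CPM. Hgf, the hepatocyte growth factor that stellate cells secrete, had 0, 0, 1 and 0 counts, so its chromatin could not be followed at this depth.

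Among 24 mesenchymal transcription factors the sum was 2163, 1616, 1576 and 691 CPM, 2.07, 1.34, 1.13 and 0.590 times that of hepatocyte nuclei, and 3 of 23 (Prrx1, Snai1 and Lhx2) were past 2-fold over both classes at 0 hours, 13.0% and so near the 8.48% of all genes. Later 4 of 24, 0 of 24 and 2 of 23 were, where 11.9, 4.23 and 13.8% of all genes were. Gata4, which restrains stellate cell activation and is also used by endothelium, had 235, 256, 168 and 34.5 CPM, against 246 in endothelial nuclei at 0 hours. Tcf4 had 297, 118, 203 and 104 CPM and Tead1, a partner of YAP, 110, 197, 331 and 138 CPM. Among 17 genes of vitamin A handling, many of which hepatocytes also use, the sum was 1631, 2167, 1589 and 1762 CPM, 1.04, 1.49, 1.08 and 1.23 times that of hepatocyte nuclei. At 48 hours it was 2.22 times in the 2 nuclei with rule hepatocyte genes at 0.1 to 0.2% and 0.945 times in the 9 nuclei under 0.05%. Of 16 with a peak at 0 hours 2 were past 2-fold over both, 12.5% and so near the 8.48% of all genes, among them Bco1, which cleaves beta-carotene. Later 4 of 17, 0 of 17 and 3 of 16 were, where 11.9, 4.23 and 13.8% of all genes were. Dhrs3, a retinal reductase, had 393, 512, 277 and 415 CPM. The retinoic acid receptor genes Rara and Rarb had 326, 315, 235 and 345 CPM and 125, 177, 197 and 311 CPM, and the retinal dehydrogenase gene Aldh1a1 had 91.1, 217, 187 and 0 CPM. The vitamin A list as a whole was thus close to hepatocyte nuclei at 0 hours.

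Lists of other cell types were read in the same way. The 9 other hepatocyte genes summed to 278 CPM at 0 hours (186 to 400), 1537 at 48 hours, 2346 at 72 hours and 3040 at 96 hours, 0.0745, 0.402, 0.712 and 0.619 times the level of hepatocyte nuclei. At 48 hours 44 of the 78 counts came from 2 nuclei with rule hepatocyte genes at 0.1 to 0.2%, where the ratio was 0.777, and in the 9 nuclei under 0.05% it was 0.190. At 72 hours it was 0.211 in the 7 nuclei under 0.05%. Hpx, hemopexin, had 9.59, 158, 416 and 622 CPM, and Cyp3a11, a drug-metabolising cytochrome P450, had 0, 39.4, 421 and 553 CPM. In hepatocyte nuclei of the same libraries Hpx had 170, 602, 531 and 887 CPM and Cyp3a11 186, 353, 377 and 504 CPM, so levels there were also lowest at 0 hours. Trf, transferrin, had 106, 355, 501 and 207 CPM, and Ass1, of the urea cycle, 86.3, 236, 309 and 104 CPM. These genes were not in the rule, but the rule limits hepatocyte nuclei through genes that go with them. The part of hepatocyte chromatin in the levels of the later libraries was not tested. The 14 other endothelial genes were at 0.232, 0.395, 0.870 and 2.05 times the level of endothelial nuclei, where the sum at 96 hours came from 5 endothelial nuclei. Erg, Flt1, Flt4 and Stab1, all of endothelium, had 0, 9.59, 9.59 and 19.2 CPM at 0 hours. The 12 Kupffer and myeloid genes were at 0.968, 0.782, 1.01 and 0.872 times hepatocyte nuclei, led by Cx3cr1 and Cd68, while C1qb and C1qc had no count at 0 hours. The 11 lymphocyte genes were at 0.297, 1.47, 1.08 and 1.55 times, led by Pax5, Bcl11b and Il2rb, and the 9 cholangiocyte genes at 0.255, 0.736, 1.11 and 0.987 times, with counts at Elf3, Ehf and Epcam. The 15 portal fibroblast and mesothelial genes summed to 149, 374, 315 and 276 CPM, 0.930, 1.79, 1.16 and 1.48 times the level of hepatocyte nuclei, so at 48 hours the ratio was near the 1.83 of the contractile list. Of these Eln, elastin, had 38.4, 118, 69.3 and 104 CPM and Gli1 62.4, 0, 64.0 and 0 CPM, while Wt1 had 14.4, 158, 61.3 and 34.5 CPM and Fbln1 0, 39.4, 37.3 and 69.1 CPM. The classes used for the 2-fold limit were themselves chosen by hepatocyte and endothelial genes. For those lists a low count follows in part from that choice, and immune nuclei were not compared. At 0 hours no gene of these 6 lists was past 2-fold over both classes. Later some were, among them 3 of 12 portal and mesothelial and 2 of 8 cholangiocyte genes at 48 hours (11.9% of all genes), 3 of 10 Kupffer and myeloid genes at 72 hours (4.23%), and 4 of 13 endothelial and 2 of 6 cholangiocyte genes at 96 hours (13.8%). The shares at 96 hours were near that of the stellate cell list at 96 hours, 3 of 10.

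A second reading let the undamaged library choose the genes and the later libraries test them as description. Of the 3387 genes outside the rule with at least 20 counts in the chosen nuclei at 0 hours, the 50 with the largest ratio over both endothelial and hepatocyte nuclei at 0 hours were taken, with 10 CPM added to each level. The first 10 were Adra2b, Dcdc2a, Nmnat2, Lhx2, Plekhs1, Cavin1, Slc17a4, Map2, Olfml3 and Pde5a. The 50 also held Tagln, Prelp, Tgfbi, Thbs1 and Adamts12, which encode secreted or matrix proteins apart from Tagln, Synm, an intermediate filament protein, Fermt2, which couples integrins to actin, and Kcnj8, a potassium channel subunit of mural cells. Adra2b, an adrenergic receptor, had 49 counts in 13 of 25 nuclei, 235 CPM at 0 hours against 20.4 in endothelial and 21.4 in hepatocyte nuclei, and 158, 53.3 and 0 CPM later against 24.6, 32.5 and 34.3 in hepatocyte nuclei. Cavin1, a coat protein of caveolae, had 134, 0, 32.0 and 34.5 CPM against 21.3, 21.6, 21.4 and 19.4 in hepatocyte nuclei. Prelp, a leucine-rich matrix proteoglycan, had 211, 177, 26.7 and 0 CPM against 27.9, 26.6, 21.3 and 24.8.

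Summed over the 50 genes, the ratio to hepatocyte nuclei was 5.15 at 0 hours, where it chose them, 1.82 at 48 hours, 1.13 at 72 hours and 1.1 at 96 hours, beside 1.24, 1.02, 0.989 and 0.997 over all eligible genes. The first of these is raised by the minimum of 20 counts in the chosen nuclei, which was set on that library. At 48, 72 and 96 hours 30, 33 and 20 of the 50 genes were above hepatocyte nuclei, and the median log2 ratio was 0.43, 0.18 and -1.27, with 0.02, -0.0015 and -0.14 over all eligible genes. How many of all eligible genes were above was not counted, so the numbers out of 50 have no share beside them. The sums over the 50 genes at 96 hours rested on 9 nuclei, and many genes had no count there. In nuclei with hepatocyte genes under 0.05% the ratio was 2.70 at 48 hours, with 32 of 50 genes above hepatocyte nuclei and a median log2 ratio of 0.98, and 1.43 at 72 hours, with 20 of 50 above and a median of -1.56. Over all eligible genes the medians in those nuclei were -0.05 at 48 hours and -1.13 at 72 hours. The summed level of the genes that led in the undamaged liver was thus above that of hepatocyte nuclei at 48 hours, with 20 of the 50 genes not above, and near it at 72 hours. The value at 0 hours chose the genes, so a lower value later is no finding.

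**Figure D5:**
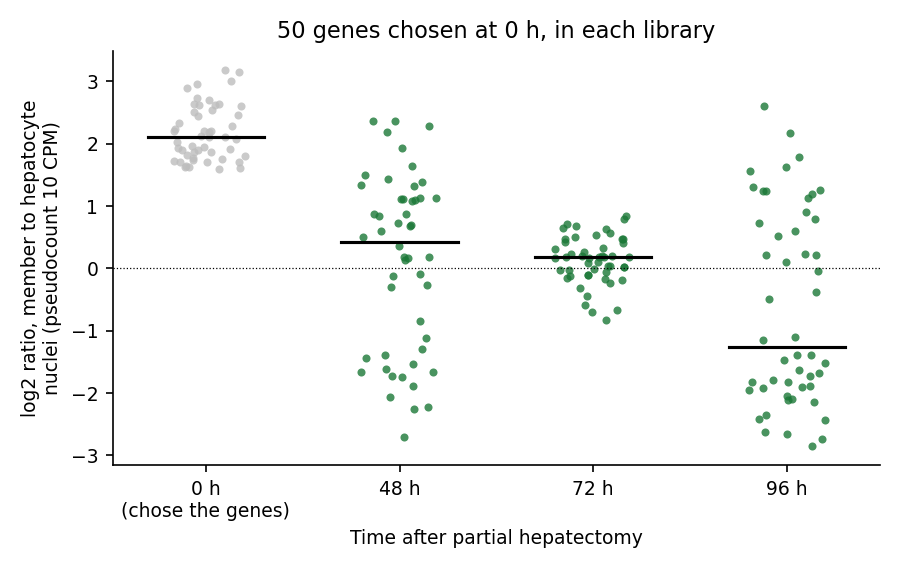
log2 ratio of marker-selected to hepatocyte nuclei, with 10 CPM added (y axis), for the 50 genes chosen at 0 hours, by time after PHx (x axis). Each point is a gene, grey where the library chose it, and bars are medians, which were 0.43 at 48 hours, 0.18 at 72 hours and -1.27 at 96 hours.

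Peaks gave the same order. Of the 6550 peaks with at least 10 counts at 0 hours, 498 (7.60%) were at least 4-fold above both endothelial and hepatocyte nuclei and were chosen by those values. Of the 498, 24.1% lay at a promoter (within 1000 bp of a start), against 74.0% of all 6550, 31.1% in introns against 7.57%, and 26.3% between genes against 7.34%. Their median length was 1318.5 bp against 2825 bp. Among the first was an intron of Tnfrsf1b, a receptor for tumour necrosis factor, with 221 CPM against 88.7 in immune nuclei. Over the whole gene Tnfrsf1b had 523 CPM in the chosen and 458 CPM in immune nuclei, which were not part of this choice. Another was the intron of Daam1, a regulator of actin assembly, with 182 CPM against 5.83 in endothelial and 4.03 in hepatocyte nuclei. A peak at Tgfbr3 had 173 CPM against 26.2 and 11.9, and the Lhx2 peak whose sequence is given had 144 CPM against 11.7 and 7.04. In the regions of the later libraries that overlap the 498 peaks, levels were 2.01, 1.16 and 1.07 times those of hepatocyte nuclei at 48, 72 and 96 hours (581, 2064 and 132 counts), and 1.09, 1.01 and 1.03 times over all 6550 peaks. Against endothelial nuclei they were 1.70, 1.07 and 1.03 times, and 0.919, 0.964 and 0.974 times over all 6550 peaks.

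The TEAD letters were in 18.9% of the 498 peaks and 13.3% of all 6550, the GATA letters in 13.5 and 8.50%, the NFI motif in 18.7 and 12.2%, the E-box in 21.5 and 16.0%, AP-1 in 9.04 and 5.51%, FOX in 5.42 and 3.51%, the LHX homeobox letters in 5.22 and 3.33%, RUNX in 5.42 and 4.29%, the HNF4 motif in 14.9 and 12.8% and the CArG box in 1.81 and 1.16%. Fewer of the 498 lay at promoters, so peaks outside promoters were also set side by side. There the TEAD letters were in 22 and 16.8%, GATA in 16.1 and 12.5%, the NFI motif in 20.9 and 17.3%, the E-box in 22.2 and 19.9% and AP-1 in 9.79 and 8.46%. Outside promoters the 95% binomial intervals of both shares overlapped for each of the 10 motifs, among them TEAD with 17.9 to 26.5% and 15.1 to 18.7%. These shares are a description without a test, all 6550 peaks include the 498, and the peaks differ in length and GC content (51.7 against 56.3%).

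Tests across libraries asked which genes differed on average over the 4 libraries, not at each time. Counts were summed per library and class and compared with edgeR's quasi-likelihood test within libraries, with Benjamini-Hochberg adjustment over all genes tested, and the 4 libraries, which differ in time point, served as replicates. Against endothelial nuclei 0 of 8672 genes passed in either direction (0%), with 150 at an unadjusted p under 0.05 and 0 by DESeq2. Of the stellate cell list 4 genes could be tested, with a median log2 fold change of 0.84, beside -0.03 over all genes. Cxcl12 had a log2 fold change of 1.58 (SE 0.48, adjusted p = 0.9996), Nmnat2 2.23 (SE 0.61), Tagln 1.87 (SE 0.60) and Lhx2 1.01 (SE 0.55, adjusted p = 0.9996 for each by edgeR). Nmnat2 moved to 1.09 without the 0 hour library and to 2.94 without the 72 hour library. None of 4030 regions passed by edgeR (0%), with 51 at an unadjusted p under 0.05 and 0 by DESeq2.

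Against immune nuclei 9 of 8672 genes were higher (0.104%) and 1 was lower (0.0115%) by edgeR. Cdh2, N-cadherin of mesenchymal and hepatocyte junctions, was higher by 2.68 on the log2 scale (SE 0.57, adjusted p = 0.0169), Adamts1, a secreted metalloproteinase, by 2.87 (SE 0.63), and Synm, which had 0 counts in the chosen nuclei at 48 hours, by 4.29 (SE 1.01, adjusted p = 0.0362). Tns1 and Tns2, which link integrins to actin, were higher by 2.13 and 2.53, Nectin3, a junction protein, by 2.79, and Cyp2d22 and Ces1c, both of hepatocyte metabolism, by 3.0 and 4.14. The remaining gene was Gm39465. Fth1, the ferritin heavy chain, fell by 2.44 (adjusted p = 0.0269). The immune sum at 96 hours was a single nucleus, and none of these genes was called higher against all 3 other classes (0 of 8671). Without any 1 library 0 to 4 genes were higher, namely 0 of 4228 without the 0 hour and 0 of 7343 without the 48 hour library. Without the 72 hour library 4 of 7408 were, and without the 96 hour library 1 of 12474. The sizes moved too. Cdh2 was at 1.78 without the 0 hour and 4.53 without the 72 hour library, Adamts1 at 2.10 and 4.39, and Cyp2d22 at 1.94 and 4.23. Ces1c was at 2.84 without the 48 hour and 6.79 without the 72 hour library. Tns1 was at 2.73 without the 72 hour library, while Nectin3 stayed within 2.70 and 2.98.

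Against hepatocyte nuclei DESeq2 gave an adjusted p to only 1095 genes, with 0 higher and 85 lower. By edgeR 0 of 21892 genes were higher (0%) and 72 were lower (0.329%), with 1748 at an unadjusted p under 0.05. Lower were 6 of the 9 other hepatocyte genes, among them Trf (log2 fold change -2.33, SE 0.47, adjusted p = 0.00465), Hpx (-1.98), Ass1 (-2.12), Pck1, of gluconeogenesis (-2.12), Tdo2, of tryptophan breakdown (-2.16), and Ahsg, a plasma protein (-2.00). Beyond the list the lower genes included Uox, urate oxidase (-2.70, SE 0.50, adjusted p = 0.00112), Hal, of histidine breakdown (-2.57, SE 0.57), and Rbp4, the plasma retinol carrier of the vitamin A list (-2.64, SE 0.69). The rule selected against hepatocyte genes, so these calls are not independent of it. The median gene was at -0.46 with TMM normalization and at -0.02 with library sizes only, which called 9 genes lower. Of the stellate cell list 10 genes were tested, 0 passed, and the median was 0.87. The 72 lower genes became 0 of 22265 without the 0 hour and 0 of 21817 without the 48 hour library. They became 306 of 21433 without the 72 hour library and 49 of 23012 without the 96 hour library. Without the 0 hour and the 72 hour library in turn Uox was at -2.16 and -3.50, Hal at -1.75 and -3.61 and Trf at -2.00 and -2.97.

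Of the other lists none had a gene past the edgeR test against endothelial or immune nuclei. Against hepatocyte nuclei the medians were 0.42 for 11 contractile genes, 0.23 for 19 matrix genes, -0.20 for 16 vitamin A genes, -0.35 for 17 signalling genes, -0.37 for 23 transcription factors, -0.34 for 9 portal and mesothelial genes, -0.46 for 14 endothelial genes, -0.42 for 2 Kupffer genes, -0.17 for 3 lymphocyte genes, -0.80 for 7 cholangiocyte genes and -2.00 for the hepatocyte genes, beside -0.46 over all genes.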

How the data were processed

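Each of the 4 libraries was deposited as a matrix of raw counts per peak and barcode. Per the file headers and the labels, the software was Cell Ranger ATAC 1.1.0, the build mm10, and each library has its own peaks. The counts are Tn5 cut sites, not fragments (87.3 to 88.6% of values are even). Library totals ranged from 15809769 to 136949314 counts. The gene windows came from GENCODE vM21, 35220 in all. Gene counts were assigned from the peaks, nuclei were classed by the rule, and counts were summed per library and class. Sums were tested with edgeR 4.0.16 (R 4.3.3; TMM, filterByExpr, library as block) over 12 sums, or 8 against hepatocyte nuclei, after a test on simulated data. The 32 rule genes and genes sharing their windows or peaks, 74 in all, were left out, as were 66 regions. The extension to shared peaks was made after the data were seen and took 3 genes, Fga, Fgg and Apoc3, from the hepatocyte list. With library as a block, p-values measure how far the difference between classes varied from library to library. With 1 library per time point, that variation includes time. In the fit of 12 sums the third class also enters it. No doublet caller was run. The members and lists were chosen with earlier results of these data known.

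Named genes were the rule's genes, from each list those past the test against endothelial nuclei or, where fewer than 4 passed, those with the most counts, and genes past the tests. Genes named for passing 2-fold, for leading at 0 hours, or singly as Acta2, Hgf and Dcn were chosen after their values were seen. Some genes that the rule names are not reported here. The 12 lists were stellate cell, vitamin A handling, matrix, contractile, transcription factor, signalling, portal and mesothelial, hepatocyte, endothelial, Kupffer and myeloid, lymphocyte and cholangiocyte genes. Alternatives were DESeq2 1.42.0, library sizes only, other filters, fragments in place of counts, other minimum counts and limits, gene starts, shared regions, no block, and each library left out.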

Additional observations from a re-analysis of the deposited data

How the results depend on the processing

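The limits are few nuclei, few counts per nucleus and 1 library per time point. Depth limits the 96 hour library most, where 9 nuclei gave 28947 counts. The cause of the changes below was not tested.

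The share of marker-selected nuclei at 0, 48, 72 and 96 hours was 0.402, 0.0771, 0.446 and 0.0620% with at least 6 marker counts, 0.955, 1.0, 3.62 and 1.40% with at least 2, 1.58, 2.18, 5.73 and 1.52% with hepatocyte genes under 0.4%, and 0.0503, 0.0514, 0.0705 and 0% after thinning to 1000 counts. With hepatocyte genes under 0.1% it was 0.603% at 0 hours, 0.423% at 72 hours and 0.124% at 96 hours, and under 0.05%, a limit chosen after seeing the data, 0.164 and 0.0931%, against 0.453% at 0 hours. Without Reln, Gucy1a2 and Pcdh7 it was 0.277% at 0 hours, 0.493% at 72 hours and 0% at 96 hours. In regions shared by all libraries it was 0.635, 0.287, 0.920 and 0.279% in order of time, and with gene starts only 0.679, 0.437, 1.62 and 1.49%, which puts 96 hours above 0 hours. The order of 72 hours above 0 hours turned under the 0.1% and the 0.05% limits. At the 0.05% limit the stellate cell list was at 638 CPM at 72 hours and 943 CPM at 96 hours.

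Against endothelial nuclei 3 of 3217 genes were higher with fragments (Cxcl12, Tmem56 and Nmnat2), and 2 of 771 regions were. Under 0.05% 1 of 736 regions was lower. Against immune nuclei 73 genes were higher and 17 lower with DESeq2, of 3124 with an adjusted p. With library sizes only it was 40 and 19 of 8672, and without the filter 3 and 0 of 21587. From 2000 counts per nucleus it was 16 and 4 of 11748, with fragments 69 and 25 of 3217. At gene starts it was 2 and 0 of 5491, and under 0.05% 30 and 24 of 2687. With the 2 classes alone it was 0 and 0 of 3662, and with 6 marker counts 0 and 0 of 8176. Without the deepest 5% of nuclei 21 of 8827 were higher. Leaving out each library gave 0 to 4 higher and 0 to 0 lower, with 4228 to 12474 genes tested. Against hepatocyte nuclei 2 of 25543 genes were higher without the filter and 11 of 21409 with fragments. Lower were 9 of 21892 with library sizes only, 0 of 21534 with 6 marker counts, 0 of 17689 at gene starts and 231 of 21279 under 0.05%. With each library left out 0 to 306 were lower, with 21433 to 23012 genes tested.

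With no replicate block (no library block), which gives up the pairing of classes within a library, 0 genes were higher and 0 lower than in immune nuclei, and 0 lower than in hepatocyte nuclei. Over all alternatives and summary values 119 differed by less than their error or under 1.5 times and 69 by more. The 119 include counts that were 0 in both fits. Those were most counts against endothelial nuclei and most counts of genes higher than in hepatocyte nuclei. The 119 are thus no measure of stability. Fold changes under the alternatives were followed for the genes called against immune nuclei. Of the 72 genes lower than in hepatocyte nuclei only those with the smallest adjusted p were followed. Hpx, Ass1, Pck1, Tdo2, Ahsg and Rbp4 were not among them. Of the fold changes followed for called genes, 159 kept their call and 130 lost it. Of those of Cxcl12, Nmnat2 and Tmem56 against endothelial nuclei, which were not called, 42 stayed so and 3 gained a call. None turned direction.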
